A study of Mus musculus with 8 samples.

Results

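The 10 genes described here encode proteins of the photoreceptor ribbon synapse and were chosen by their known function, with earlier results of these data known. They are Ctbp2, Bsn, Cacna1f, Cacna2d4, Cabp4, Lrit1, Lrit3, Egflam, Elfn1 and Unc119, that is 10 of the 57010 gene identifiers counted, and all 10 were among the 20457 genes with enough reads to be tested. Whole retinas were taken from wild-type (WT) C57BL/6J mice at postnatal day 15 (P15) and from mice homozygous for rd10 at P15, P18 and P21. rd10 is a missense allele of Pde6b, which encodes the beta subunit of the rod phosphodiesterase, and rods degenerate in these mice. The methods name littermates as controls, and the background strain of the rd10 mice is not stated. Each of the 4 groups had 2 libraries, each made from poly(A) RNA of 1 retina. WT retinas older than P15 were not analysed here, so that age and genotype cannot be told apart at P18 and P21.

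Photoreceptors release glutamate continuously, at a rate that light lowers. Their terminals hold a synaptic ribbon, a plate that tethers vesicles above the release site, where an L-type calcium channel of the Cav1.4 type admits the calcium that drives fusion. In the cleft, adhesion and matrix proteins from the terminal line up the glutamate receptor mGluR6 and its cascade on the tips of ON-bipolar cell dendrites. Mutations in genes of this synapse, among them CACNA1F, CABP4, CACNA2D4 and LRIT3, are known causes of congenital stationary night blindness or cone-rod disease.

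Libraries held between 28076947 and 33724562 counted reads, and the 10 genes had between 946 and 29978 reads each per library. Levels are given as CPM, counts scaled to the library size after TMM scaling of the libraries. All 20 rod markers read had counts in every group, and their summed level was 58836 to 71276 CPM in WT retinas, 44458 to 48107 in rd10 retinas at P15, 37708 to 38724 at P18 and 28016 to 36295 at P21. In RNA of whole tissue, fewer cells of a type and less RNA per cell cannot be told apart. The summed 10 cone markers lay at 1270 to 1626 CPM in WT retinas, 793 to 884 in rd10 retinas at P15, 1018 to 1030 at P18 and 1279 to 1373 at P21. Microglial markers (10 genes) lay at 84.0 to 97.2 CPM in WT P15 and at 238 to 475 in rd10 P21, and markers of reactive Muller glia (10 genes) at 162 to 184 CPM in WT retinas, 1294 to 1499 in rd10 retinas at P18 and 594 to 717 at P21. By Xist and 4 Y-linked genes, both WT P15 retinas were female and both rd10 P15 retinas male, so that genotype and sex cannot be told apart at P15. In rd10 P18 and rd10 P21, replicate 1 was male and replicate 2 female.

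One library stood apart and touches the genes described here. Within rd10 P18, replicate 1 held less of long genes and more of short ones than replicate 2. The median log2 difference, replicate 1 minus replicate 2, was 0.32 over 5001 genes with exons of under 2 kb and -0.46 over 2741 genes with exons of 8 kb and over. In the other groups the same medians stayed between -0.02 and 0.03. Values at P18 are therefore given for both libraries, and those that rest on 1 of them are named.

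**Figure D1:**
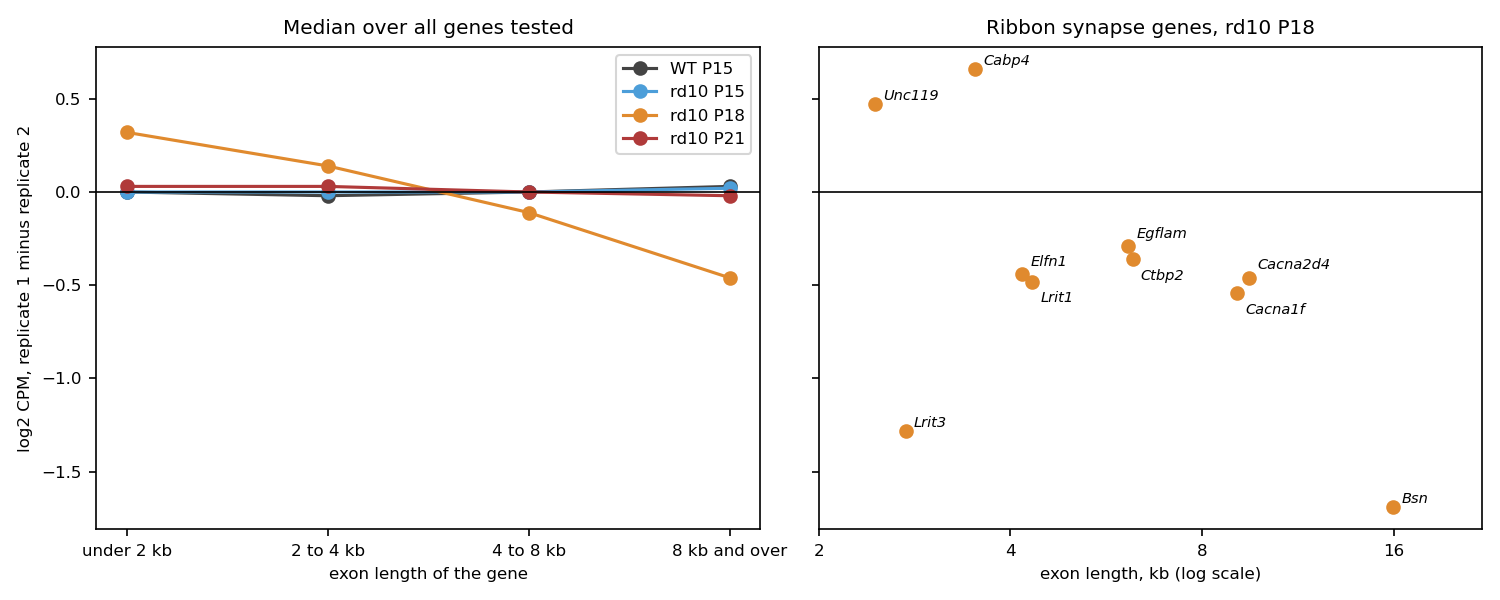
Left, median log2 difference in CPM between the libraries of a group (replicate 1 minus replicate 2), by exon length class and group; the rd10 P18 line runs from 0.32 to -0.46 while the other lines stay between -0.02 and 0.03. Right, the same difference in rd10 P18 for each ribbon synapse gene against its exon length in kb (log scale), from 0.66 for Cabp4 to -1.69 for Bsn.

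At the oldest age, the mean of the ribbon gene Ctbp2 was near that of WT P15, and that of the anchor gene Bsn higher. These are totals of whole-retina RNA, which do not show the cells that the reads came from. Ctbp2 encodes RIBEYE, the main building block of the ribbon, and from other transcripts the nuclear co-repressor CtBP2. Bsn encodes Bassoon, the large scaffold protein that attaches the ribbon to the active zone. By edgeR, neither passed the threshold in any comparison, and the largest difference, that of Bsn at P18, came from 1 library.

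Ctbp2 (ENSMUSG00000030970, minus strand, chr7:132987563-133124354 in GRCm38) measured 279 and 269 CPM in WT retinas, 244 and 265 in rd10 retinas at P15, 193 and 248 at P18 and 267 and 268 at P21. The P21 libraries lay just under both WT libraries and the P18 replicate 1 library was the lowest of all. Against WT P15, the log2 fold change was -0.11 at P15, -0.31 (SE 0.15) at P18 and -0.04 at P21, where its 95% interval ran from -0.37 to 0.30. Counts per gene add up RIBEYE and CtBP2, and 314 of the 6220 exon bases are shared with Fgfr2, a gene with 16 to 163 reads. Of the annotated Ctbp2 transcripts, the one with the longest coding sequence, of 988 residues, starts inside the gene, and the next longest codes for 445 residues. The 250 bases before that inner start, from RefSeq (GRCm38.p6, chr7:133015248-133015497, minus strand), are shown because it is the start of the RIBEYE transcript, with capitals marking GGATTA, the reverse complement of TAATCC, the core letters that the photoreceptor factors CRX and OTX2 bind:
Ctbp2, inner start: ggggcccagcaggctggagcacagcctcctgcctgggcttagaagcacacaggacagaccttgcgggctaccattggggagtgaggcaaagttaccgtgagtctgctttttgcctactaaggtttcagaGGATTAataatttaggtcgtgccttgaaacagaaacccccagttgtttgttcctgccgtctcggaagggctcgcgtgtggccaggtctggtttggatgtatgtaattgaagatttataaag

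Bsn (ENSMUSG00000032589, chr9:108096022-108190384, minus strand) measured 250 and 242 CPM in WT retinas, 265 and 255 in rd10 retinas at P15, 80.4 and 260 at P18 and 283 and 292 at P21. The other libraries lay close together and rd10 P18 replicate 1 lay far below them. Bsn has the longest exons of the 10 genes, 15938 bases. Its log2 fold change at P18 was -0.53 (SE 0.47, edgeR adjusted p = 0.617) with both libraries, 0.08 without replicate 1 and -1.61 with replicate 1 alone. At P21 both libraries lay above those of WT. The log2 fold change there was 0.22 (95% interval -0.91 to 1.36), from a spread estimated over all 4 groups, rd10 P18 included. Pclo, the gene of Bassoon's relative Piccolo, chosen after its values were seen, measured 249 and 222 CPM in WT retinas, 62.5 and 194 in rd10 retinas at P18 and 236 and 262 at P21.

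The genes of the calcium channel were lower in rd10 retinas than in WT P15 retinas at every age, without passing the threshold by edgeR. Cacna1f encodes the pore-forming subunit of Cav1.4, Cacna2d4 its alpha2-delta subunit, and Cabp4 a calcium-binding protein that sits on the channel and tunes its opening. All 3 genes had both rd10 libraries below both WT libraries at P15, at P18 and at P21. With each age taken alone, 25.2%, 22.9% and 24.2% of all genes tested had this. The share that had it at all 3 ages, which are set against the same WT libraries, was not computed. At P21 the means of Cacna1f and Cacna2d4 lay nearer to WT P15 than at P15, and that of Cabp4 did not.

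Cacna1f (ENSMUSG00000031142, chrX:7607083-7635196, plus strand) measured 412 and 360 CPM in WT retinas, 229 and 234 in rd10 retinas at P15, 165 and 239 at P18 and 264 and 314 at P21. The WT libraries were the 2 highest. The log2 fold change against WT P15 was -0.74 (SE 0.19, edgeR adjusted p = 0.165) at P15, -0.94 (SE 0.19, adjusted p = 0.0546) at P18 and, at P21, -0.42 (SE 0.19, adjusted p = 0.447). DESeq2 gave adjusted p = 0.0274 at P15 and 0.00072 at P18. Cacna1f is X-linked, and with a term for sex, estimated from rd10 P18 and rd10 P21 alone and thus with rd10 P18 replicate 1 as 1 of its 2 male libraries, the difference at P15 was -0.34 (adjusted p = 0.6) and that at P18 -0.76 (adjusted p = 0.0626). Without rd10 P18 replicate 1 the P18 difference was -0.69 (adjusted p = 0.0439), and with that library alone -1.23, past the threshold. From P18 to P21 the log2 fold change was 0.52 (95% interval 0.08 to 0.96, adjusted p = 0.44).

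Cacna2d4 (ENSMUSG00000041460, chr6:119236526-119352407, plus strand) measured 566 and 550 CPM in WT retinas, 400 and 450 in rd10 retinas at P15, 312 and 431 at P18 and 477 and 503 at P21. Every rd10 library lay below both WT libraries. Its log2 fold change was -0.39 (SE 0.17) at P15, -0.59 (SE 0.17, edgeR adjusted p = 0.13, DESeq2 adjusted p = 0.0404) at P18 and -0.19 (95% interval -0.57 to 0.20) at P21. Cabp4 (ENSMUSG00000024842, chr19:4135423-4144033, minus strand) measured 191 and 162 CPM in WT retinas, 111 and 132 in rd10 retinas at P15, 151 and 95.6 at P18 and 100 and 122 at P21. All rd10 libraries were below both WT libraries, with rd10 P18 replicate 1 the highest of them. Its log2 fold change was -0.54 (SE 0.23) at P15, -0.51 (SE 0.23) at P18 and -0.67 (SE 0.23, edgeR adjusted p = 0.288) at P21. Without rd10 P18 replicate 1 the P18 value was -0.88. Cabp4 shares 131 exon bases with Gpr152 on the other strand, and whether reads were counted by strand is not given in the sources used here.

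Cacnb2, which encodes the beta subunit of the same channel, belonged to a list of 27 other genes of the release machinery. It measured 248 and 222 CPM in WT retinas, 133 and 156 in rd10 retinas at P15, 80.5 and 112 at P18 and 115 and 144 at P21. All 6 rd10 libraries were well below the WT libraries. It was called at P18, with a log2 fold change of -1.29 (SE 0.20, edgeR adjusted p = 0.0257), and measured -0.70 (SE 0.19, adjusted p = 0.187) at P15 and -0.86 (SE 0.19, adjusted p = 0.118) at P21. The call at P18 was lost when either WT library was left out. Both P18 libraries of Cacnb2 lay below those of the other groups. For Cacna1f and Cacna2d4 the lower mean at P18 than at P15 rested on rd10 P18 replicate 1, and without that library the log2 fold changes of P18 against rd10 P15 were 0.04 and 0.02.

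**Figure D2:**
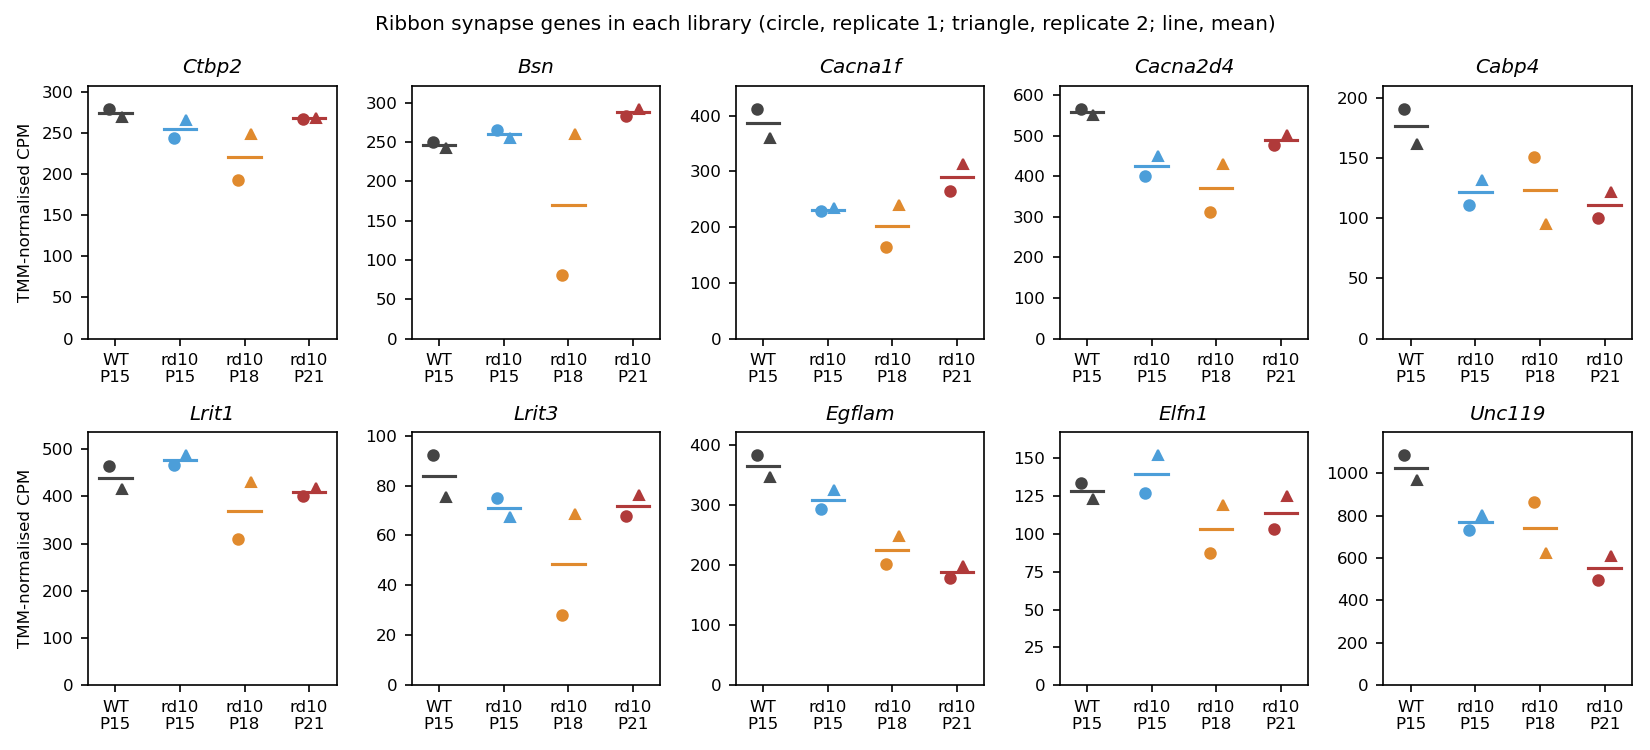
TMM-normalised CPM of each ribbon synapse gene in every library, by group; circles are replicate 1, triangles replicate 2 and lines the group means. Egflam steps down from group to group to 179 and 199 CPM in rd10 P21, while in Bsn and Lrit3 the rd10 P18 replicate 1 library (80.4 and 28.2 CPM) lies alone.

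The genes of the cleft and of the contacts across it behaved unequally. Egflam, which encodes pikachurin, a matrix protein that binds dystroglycan at the synapse and shapes the contact of photoreceptor and bipolar cell, had a lower mean at each later age, down to a fold of 0.518 of WT P15 in rd10 P21. Elfn1, whose product recruits mGluR6 across the rod synapse, Lrit1, a leucine-rich repeat protein of the photoreceptor terminal, and Lrit3, which is needed for the assembly of the TRPM1 channel on the bipolar side, differed from WT P15 by less at P21.

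Egflam (ENSMUSG00000042961, chr15:7206120-7398395, minus strand) measured 383 and 347 CPM in WT retinas, 294 and 325 in rd10 retinas at P15, 202 and 248 at P18 and 179 and 199 at P21. The pairs of libraries did not overlap between any of the 4 groups, and the share of all genes of which this holds was not computed. At P21, 199 CPM in replicate 2 lay just under 202 in rd10 P18 replicate 1. Its rd10 libraries lay below both WT libraries at P15, P18 and P21. With each age taken alone, those of 25.2%, 22.9% and 24.2% of all genes did, and the joint share was not computed. The log2 fold change against WT P15 was -0.24 (SE 0.15, edgeR adjusted p = 0.573) at P15, -0.70 (SE 0.15, adjusted p = 0.0621) at P18 and -0.95 (SE 0.15, 95% interval -1.29 to -0.61, adjusted p = 0.0487) at P21. At P21 it was the only one of the 10 genes past the adjusted p threshold by edgeR, where 0.425% of all genes were, and it did not pass the fold threshold (absolute log2 fold change over 1). The P21 value stayed between -1.02 and -0.84 under the 15 alternatives, while its edgeR adjusted p ran from 0.00406 without rd10 P18 replicate 1 to between 0.0959 and 0.298 with 1 of the WT P15, rd10 P15 or rd10 P21 libraries left out, and was 0.0817 with a term for sex. DESeq2 gave 1.9e-05. Within rd10, P21 against P15 gave -0.71 (SE 0.15, edgeR adjusted p = 0.106, DESeq2 adjusted p = 0.00438, as for 3.57% of all genes), a comparison in which both groups carry the mutation. Dag1, the gene of dystroglycan, chosen after its values were seen, had log2 fold changes of 0.31, 0.47 and 0.68 at P15, P18 and P21, none past the threshold. Egflam shares 198 exon bases with an antisense gene of 6 to 44 reads. The 250 bases before the Egflam start, from RefSeq (GRCm38.p6, chr15:7398396-7398645, minus strand), are shown as those of the gene with the largest difference at P21, and no match to TAATCC was found in them:
Egflam: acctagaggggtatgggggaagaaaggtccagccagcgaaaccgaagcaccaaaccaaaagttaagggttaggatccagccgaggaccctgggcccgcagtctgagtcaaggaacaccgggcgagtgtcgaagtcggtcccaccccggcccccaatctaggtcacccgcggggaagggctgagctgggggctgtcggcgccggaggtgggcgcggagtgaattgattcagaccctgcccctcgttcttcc

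Lrit1 (ENSMUSG00000041044, chr14:37054830-37064946, plus strand) measured 464 and 416 CPM in WT retinas, 467 and 487 in rd10 retinas at P15, 309 and 431 at P18 and 402 and 418 at P21. The lower rd10 P15 library (467) was just above the higher WT library (464), and the P21 libraries overlapped those of WT. Log2 fold changes were 0.12 at P15, -0.25 at P18 and -0.10 at P21, with a 95% interval of -0.49 to 0.29 at P21. The 250 bases before its start (RefSeq, GRCm38.p6, chr14:37054580-37054829, plus strand) are shown as those of a gene near WT level that hold TAATCC, here in capitals:
Lrit1: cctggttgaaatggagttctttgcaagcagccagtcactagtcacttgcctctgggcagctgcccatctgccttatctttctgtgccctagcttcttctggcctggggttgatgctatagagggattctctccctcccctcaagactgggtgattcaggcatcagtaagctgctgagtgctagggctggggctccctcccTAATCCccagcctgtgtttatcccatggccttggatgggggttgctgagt

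Elfn1 (ENSMUSG00000048988, chr5:139907943-139974722, plus strand) measured 134 and 123 CPM in WT retinas, 127 and 152 in rd10 retinas at P15, 87.1 and 119 at P18 and 103 and 125 at P21. The P21 libraries overlapped those of WT, and the P18 libraries were below them. Its log2 fold change was 0.11, -0.32 and -0.17 at P15, P18 and P21, the last with a 95% interval of -0.60 to 0.25. Lrit3 (ENSMUSG00000093865, chr3:129787881-129804030, minus strand) measured 92.1 and 75.6 CPM in WT retinas, 74.9 and 67.5 in rd10 retinas at P15, 28.2 and 68.8 at P18 and 67.9 and 76.1 at P21. As for Bsn, rd10 P18 replicate 1 lay alone at the bottom while the exons of Lrit3 span 2739 bases. Its log2 fold change at P18 was -0.79 (SE 0.37, edgeR adjusted p = 0.326) with both libraries and -0.28 without replicate 1, and at P21 it was -0.22.

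Unc119 encodes a lipid-binding chaperone that carries acylated proteins such as rod transducin and is also found at the photoreceptor terminal. Its gene (ENSMUSG00000002058, chr11:78343482-78349164, plus strand) measured 1085 and 971 CPM in WT retinas, 735 and 805 in rd10 retinas at P15, 864 and 623 at P18 and 496 and 610 at P21. All rd10 libraries were below both WT libraries, and those of P21 were the lowest. Relative to WT P15, its log2 fold change was -0.42 (SE 0.19) at P15, -0.47 (SE 0.19) at P18 and -0.89 (SE 0.19, 95% interval -1.33 to -0.46, edgeR adjusted p = 0.103, DESeq2 adjusted p = 0.00137) at P21. The P18 value was -0.72 with rd10 P18 replicate 1 left out. With each library left out in turn, the P21 value ran from -1.04 to -0.75. Arl3, of the release machinery list, encodes the small GTPase that unloads cargo from Unc119. It measured 252 and 244 CPM in WT retinas, 203 and 192 in rd10 retinas at P15, 222 and 179 at P18 and 134 and 152 at P21, the P21 libraries again being the lowest, with a log2 fold change of -0.80 (SE 0.15, adjusted p = 0.0727) at P21.

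The 10 genes were set against WT P15 as a list, by counts and medians and with no test of the list. At P15, 0 of 10 were called by edgeR, where 0.23% of all genes tested were, and 3 of 10 (Cacna1f, Cabp4 and Cacna2d4, all lower) had an unadjusted p under 0.05, where 12.3% of all genes had. At P18 again 0 of 10 were called, against 1.48% of all genes, and 4 of 10 had an unadjusted p under 0.05, against 17.4%. At P21, 0 of 10 were called, against 0.386%, and 3 of 10 had an unadjusted p under 0.05, against 11.8%. DESeq2 also called 0 of 10 at each age, against 2.13%, 4.74% and 2.76% of all genes. Without the fold threshold, DESeq2 passed 1 gene at P15 (Cacna1f, against 3.26% of all genes), 3 at P18 (Cacna1f, Egflam and Cacna2d4, against 7.05%) and 2 at P21 (Egflam and Unc119, against 3.81%).

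Most of the 10 genes were nevertheless on the lower side. Log2 fold changes were below 0 for 7 of 10 at P15, 10 of 10 at P18 and 9 of 10 at P21, against 50.6%, 48.9% and 49.7% of all genes. Both rd10 libraries were below both WT libraries for 7, 8 and 6 of the 10 genes, against 25.2%, 22.9% and 24.2% of all genes. The median log2 fold change of the 10 genes was -0.24 at P15, -0.52 at P18 and -0.20 at P21, beside -0.01, 0.01 and 0 over all genes tested. By library, the median difference from the WT mean was -0.24 in both rd10 libraries of P15, -0.70 and -0.33 at P18 and -0.31 and -0.14 at P21, so that the P18 value is largest in the library that stood apart. With a term for sex the medians were 0.03 at P15, -0.49 at P18 and -0.02 at P21. That term comes from rd10 P18 and rd10 P21, where the male library is always replicate 1, so that sex and the library that stood apart cannot be told apart in it. In rd10 P21, without that library, the male library was the lower for all 10 genes, by -0.01 (Ctbp2) to -0.30 (Unc119) on the log2 scale. Between the WT P15 libraries, both female, replicate 1 was the higher for all 10, by 0.04 (Cacna2d4) to 0.29 (Lrit3). The part of sex was not tested apart from other differences between retinas. In that fit Bsn at P15 moved from 0.08 to 0.95 and Lrit3 from -0.24 to 0.49. Scaled by library size only, where the median of all genes at P21 was 0.11, the log2 fold changes of Ctbp2 and Lrit1 at P21 were 0.08 and 0.01. These comparisons share the WT P15 libraries.

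**Figure D3:**
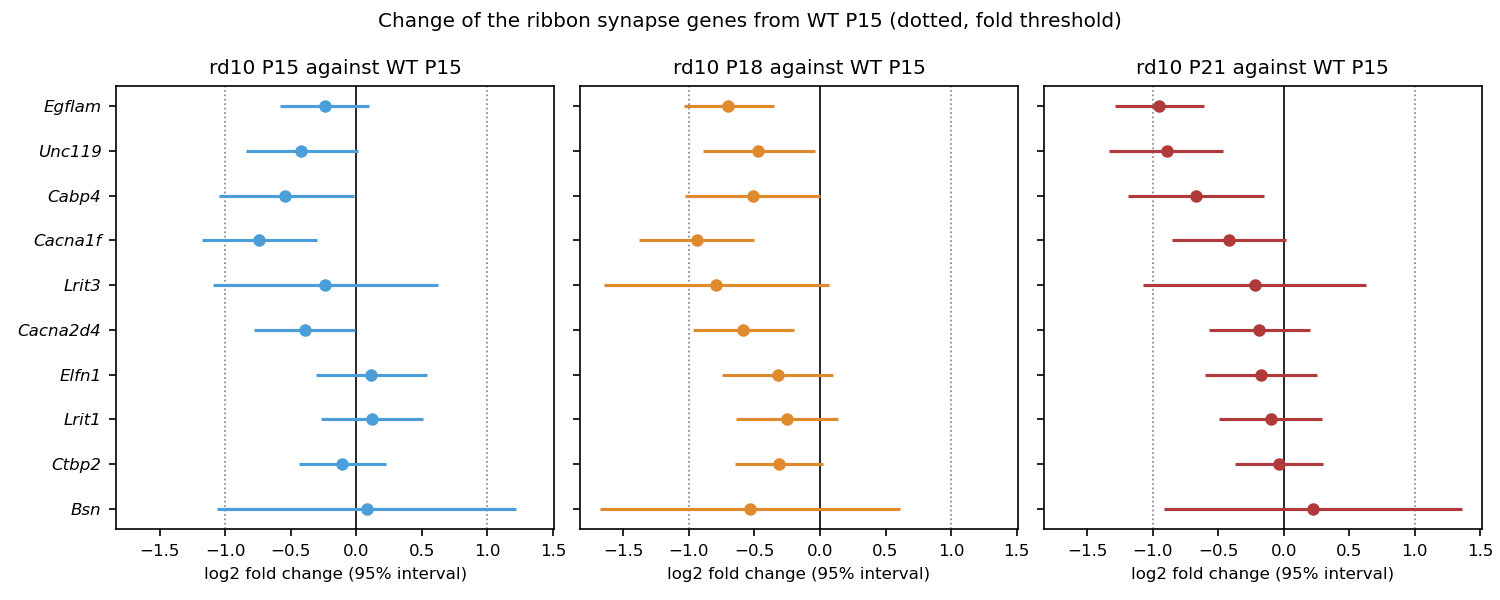
Log2 fold change of each ribbon synapse gene from WT P15 (point) with its 95% interval (line) in rd10 P15, rd10 P18 and rd10 P21, by edgeR; dotted lines mark the fold threshold. At P21 Egflam (-0.95) and Unc119 (-0.89) lie farthest to the left, and Ctbp2 (-0.04) lies at 0.

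Among the rd10 ages, none of the 10 genes was called. The background was 0.591% of all genes for P18 against P15, 0.401% for P21 against P15 and 0.0196% for P21 against P18. From P15 to P21, 4 of the 10 genes had both libraries lower without overlap, where 25.5% of all genes tested had, and 4 had both higher, where 27% had. Egflam, Unc119, Elfn1 and Lrit1 were the lower ones, with log2 fold changes of -0.71, -0.48, -0.29 and -0.22. Cacna1f, Cacna2d4, Bsn and Ctbp2 were the higher ones, with 0.32, 0.21, 0.15 and 0.07. The 95% intervals of Cacna1f (-0.12 to 0.76), Cacna2d4 (-0.18 to 0.59), Bsn, Ctbp2, Elfn1 and Lrit1 include 0, those of Egflam (-1.05 to -0.37) and Unc119 (-0.91 to -0.05) do not.

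Levels between genes were compared per kb of exon. In WT P15, Unc119 was the most abundant at 420 ± 33.0 CPM per kb (SD, n = 2), followed by Lrit1 at 102 ± 7.78. Egflam (59.6 ± 4.08), Cacna2d4 (58.9 ± 1.22), Cabp4 (50.2 ± 5.78), Ctbp2 (44.0 ± 1.21), Cacna1f (42.5 ± 4.04), Elfn1 (30.8 ± 1.81) and Lrit3 (30.6 ± 4.27) came next in CPM per kb, and Bsn was last at 15.4 ± 0.356. The libraries of Egflam and Cacna2d4, of Ctbp2 and Cacna1f, and of Elfn1 and Lrit3 overlapped, so that the order within these pairs is not set. In rd10 P21 the same genes stood at both ends, with Unc119 at 226 ± 32.9 CPM per kb, Lrit1 at 94.8 ± 2.61 and Bsn at a CPM per kb of 17.7 in one library and 18.3 in the other. Egflam, at rank 3 in WT P15, was then at rank 7 with 30.9 ± 2.23 CPM per kb, with libraries that overlapped those of its neighbours Cabp4 and Elfn1.

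A pair of lists from the same synapse were read beside the 10 genes. Of the 27 other genes of the release machinery, 0, 1 and 0 were called at P15, P18 and P21, the 1 being Cacnb2, and their median log2 fold changes were -0.04, -0.22 and -0.10. Besides those already given, Rims1, a scaffold of the active zone, measured 0.67 (edgeR adjusted p = 0.0863) and Slc1a7, a glutamate transporter, 0.34 (adjusted p = 0.314) at P15. Slc17a7, which encodes the vesicular glutamate transporter of photoreceptors and bipolar cells, measured -0.77 (adjusted p = 0.0739) and Sv2b, a vesicle protein, -0.59 (adjusted p = 0.0875) at P18. Cplx4, a complexin of photoreceptor terminals, measured -0.66 (adjusted p = 0.108) at P21.

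The list of 14 postsynaptic partners held mostly genes of the mGluR6 cascade in ON-bipolar cells, and also Dag1, Dmd and Lrfn2. The 14 genes had median log2 fold changes of 0.01, -0.06 and 0.43, with 10 of 14 above 0 at P21. Of these 0, 1 and 0 were called. The 1 was Rgs9bp, the membrane anchor of the RGS9 complex, which photoreceptors also express, with a log2 fold change of -0.93 (edgeR adjusted p = 0.0945) at P15, -1.33 (adjusted p = 0.0222) at P18 and, at P21, -0.88 (adjusted p = 0.116). Its call at P18 was lost when either WT library was left out. Gnb3, the G protein beta subunit of ON-bipolar cells and cones, was past the adjusted p threshold but not the fold threshold at P18, at 0.80 (adjusted p = 0.0291), and measured 0.64 (adjusted p = 0.0945) at P21. Lrfn2, a synaptic adhesion protein, measured 0.68, 0.60 and 0.73, and Rgs11, a regulator of the mGluR6 cascade, -0.33, 0.25 and 0.45 at P15, P18 and P21, none past the threshold. The summed level of 9 bipolar cell markers was 1301 to 1341 CPM in WT P15, 1241 to 1627 in rd10 P15, 1281 to 1393 in rd10 P18 and 1532 to 1681 in rd10 P21. Its part in these values was not tested.

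Rod markers lay mostly below WT P15 at every age, and cone markers at P15 and P18. The 20 rod markers had median log2 fold changes of -0.42, -0.74 and -1.01 at P15, P18 and P21, with 17, 20 and 20 below 0 and 0, 3 and 5 called. The 10 cone markers had medians of -0.62, -0.64 and -0.13, with 10, 9 and 6 below 0 and 1, 1 and 0 called. In the rd10 P21 libraries, the median difference from the WT mean was -1.23 and -0.80 for rod markers and -0.31 and -0.14 for the ribbon synapse genes. The difference between these lists was not tested, and neither was the part that the fewer rod transcripts have in the values of the 10 genes. Which cells the reads of the 10 genes came from cannot be read from whole-retina RNA.

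**Figure D4:**
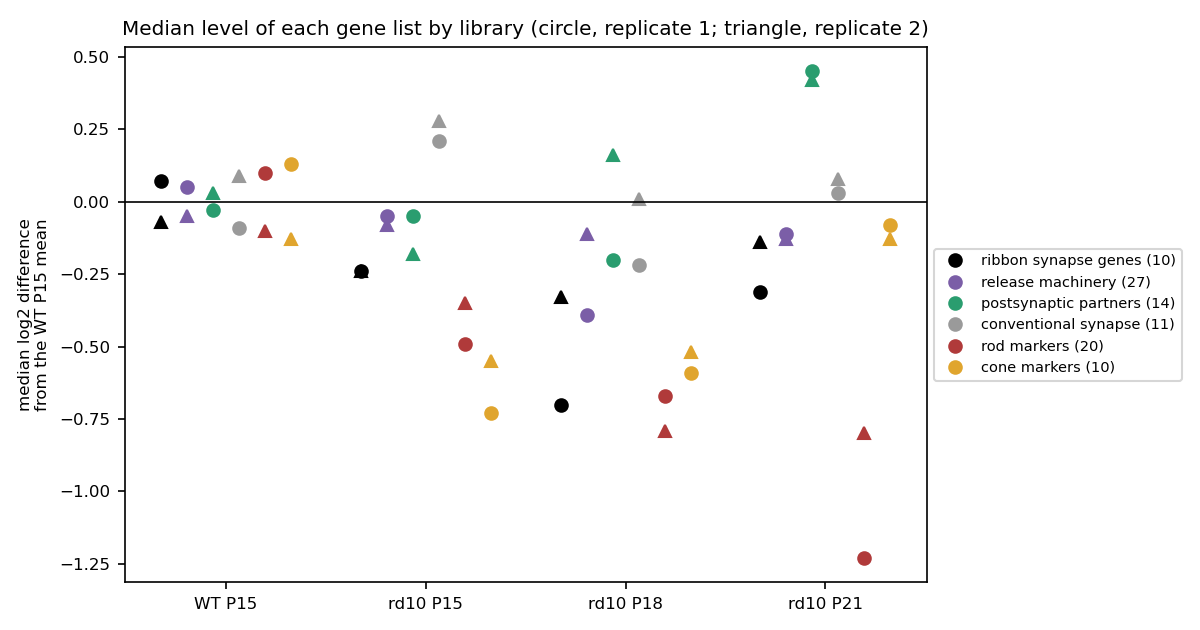
Median log2 difference from the WT P15 mean over each gene list, in every library; circles are replicate 1 and triangles replicate 2. In rd10 P21 the rod markers lie at -1.23 and -0.80, the ribbon synapse genes at -0.31 and -0.14 and the postsynaptic partners at 0.45 and 0.42.

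The genes whose 8 values came nearest to the median profile of the 10 genes were Msi2, Ranbp2, Atr, Ift172 and Phc1, with root mean square differences of 0.032, 0.054, 0.055, 0.057 and 0.059 on the log2 scale over the 8 libraries, among 10988 candidates with a mean of at least 10 CPM. Their lowest library was rd10 P18 replicate 1 as well, which follows from how they were chosen. The median profile hides unlike members, since in that library the differences from the WT mean ran from -1.61 for Bsn to -0.22 for Cabp4.

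RefSeq windows of 250 bases before a start were found for 8 of the 10 genes, 12 windows in all, and not for Cacna2d4 and Cabp4. TAATCC, on either strand, was in 3 of the 12 windows (25%), those of the inner Ctbp2 start, Lrit1 and 1 of the 3 Unc119 starts, against 2054 of 32851 windows of all genes (6.25%). It lay 121, 50 and 118 bases before the start. That Unc119 start had 0 GENCODE starts within 100 bases, and some windows overlapped, as those of Egflam did. By gene, 3 of 8 (37.5%) had a match in any window, against 7.21% of all genes. TGCTGA, the core letters of the site that the rod factor NRL binds, was in 2 of 12 windows (16.7%), against 16.1% of all windows. Of these genes, Lrit1 had a log2 fold change of -0.10 and Unc119 one of -0.89 at P21.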

How the data were processed

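The authors deposited 1 table of raw read counts, whole numbers per Ensembl gene and library, with no normalization. HISAT2 is named in the submitters' processing notes. For the counting tool, its strand setting, the genome build and the annotation, the sources used here give nothing. Per the paper's methods, libraries were sequenced on an Illumina NovaSeq instrument and tested by the authors with DESeq2 at the thresholds used below. Symbols, positions and exon lengths came from GENCODE M21 (GRCm38), which names 52029 of the 57010 identifiers, and can differ from the gene models counted.

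Counts were tested with edgeR 4.0.16 (R 4.3.3, limma 3.58.1). Genes were kept by filterByExpr (minimum count 10, minimum total 15), libraries scaled by TMM, and a robust quasi-likelihood model was fitted to all 8 libraries with group as the only term, leaving 4 residual degrees of freedom. Benjamini-Hochberg adjustment ran over 20457 genes. A call needed an adjusted p below 0.05 together with a log2 fold change beyond 1 in either direction. Log2 CPM used a prior count of 2. P-values rest on the spread between the retinas of a group, estimated over all 4 groups and not only the 2 compared. That spread also holds the sex difference within rd10 P18 and rd10 P21 and the rd10 P18 library that stood apart. With 2 libraries a group, exact permutation allows no two-sided p under 0.333, so that none was used. Alternatives were DESeq2 1.42.0, no filter, library size only, RLE size factors, a fit of only the 4 libraries compared, a replicate block, a term for sex, no fold threshold and each library left out in turn. The replicate numbers do not pair the retinas, with correlations of deviations between -0.025 and 0.059.

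The 10 genes and all lists and motifs were chosen with earlier results of these data known. The lists were release machinery, postsynaptic partners, conventional synapse, rods, cones, bipolar cells, amacrine and ganglion cells, horizontal cells, Muller glia, reactive Muller glia, microglia, retinal pigment epithelium, lens, red blood cells and sex genes. All 10 genes are named, with the 3 genes of smallest p in each of the first 3 lists, comparison by comparison against WT P15, any called gene of these, and the 5 genes of most like pattern. Any other gene was chosen after its values were seen.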

Additional observations from a re-analysis of the deposited data

Results flagged for a closer look

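For Lrit1, the libraries of 1 age lay on one side of the WT P15 mean and those of another age on the other side. Both rd10 P15 libraries were above the WT mean and both rd10 P18 libraries below it, with mean differences of 0.12 and -0.27 on the log2 scale. The log2 fold change from rd10 P15 to rd10 P18 was -0.37 (edgeR adjusted p = 0.416). Both rd10 P21 libraries were below the WT mean too, at -0.10 on average, and the log2 fold change from rd10 P15 to rd10 P21 was -0.22 (adjusted p = 0.649). Neither difference passed the test, and rd10 P18 replicate 2 differed from the WT mean by -0.03.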

How the results depend on the processing

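Over 15 alternatives, 866 of 900 log2 fold changes of the 10 genes kept their sign and stayed outside the call, as they were with edgeR on all 8 libraries. Many of these fits leave out a library of neither group compared, which hardly moves the log2 fold change, so the count says little about stability. The 7 new calls all came with rd10 P18 replicate 2 left out, that is with the library short of long transcripts standing for its group, which is then assumed to vary like the other groups. Against WT P15 they were Bsn (-1.61), Lrit3 (-1.57) and Cacna1f (-1.23). Against rd10 P15 and for rd10 P21 they were Bsn and Lrit3. The cause was not tested.

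With each library left out in turn, 0 to 3 of the 10 genes were called for P18 against WT P15, 0 to 2 for P18 against rd10 P15, 0 to 2 for P21 against P18 and 0 in the other comparisons. Their median ran from -0.34 to -0.13 at P15, -0.70 to -0.33 at P18 and -0.30 to -0.13 at P21 against WT P15, from -0.55 to -0.10 for P18 and -0.15 to 0.04 for P21 against rd10 P15, and from 0.09 to 0.44 for P21 against P18. Called genes ran from 0 to 1 at P15 and 0 to 5 at P18 in the release machinery and from 0 to 2 at P18 in the postsynaptic partners.

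With a term for sex, in which rd10 P18 replicate 1 cannot be told apart from sex, the median was 0.03 at P15 and -0.02 at P21 against WT P15 and -0.28 for P21 against rd10 P15. With library size only it was -0.09 and 0.01 for P21 against WT P15 and rd10 P15, with all genes at 0.11 and 0.08. Without the fold threshold edgeR passed 1 gene at P21, and DESeq2 passed 1, 3 and 2 at P15, P18 and P21 against WT P15 and 1 for P21 against rd10 P15. With a replicate block no call changed among the 10 genes, the medians against WT P15 were -0.24, -0.56 and -0.21, Egflam at P21 had adjusted p = 0.0735, and over all genes calls went from 47 to 16 at P15 and from 79 to 18 at P21.

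In 27 fits a log2 fold change took the other sign, called in neither. Against WT P15 these were Ctbp2 (0.08) and Lrit3 (0.49) with the sex term and Elfn1 (-0.02 to 0.24 over libraries left out, below 0 without rd10 P15 replicate 2) at P15, Bsn (0.08) without rd10 P18 replicate 1 at P18, and at P21 Ctbp2 (0.08) and Lrit1 (0.01) with library size only, Ctbp2 (0.06), Lrit1 (0.04), Lrit3 (0.17) and Elfn1 (0) with the sex term and Ctbp2 (0.01) without WT P15 replicate 1. For P18 against rd10 P15 they were Unc119 with library size only (0.03), without rd10 P15 replicate 2 (0.02) and without rd10 P18 replicate 2 (0.17), Cabp4 without rd10 P15 replicate 1 (-0.09) and without rd10 P18 replicate 1 (-0.35, range to 0.32), and Cacna1f (range -0.49 to 0.04) and Cacna2d4 (range -0.44 to 0.02) without the latter. For P21 against rd10 P15 they were Ctbp2 (-0.02), Bsn (-0.23) and Lrit3 (-0.32) with the sex term, Lrit3 (range -0.06 to 0.10) without rd10 P15 replicate 2 or rd10 P21 replicate 2 and Cabp4 (range -0.27 to 0) without rd10 P21 replicate 1, and for P21 against P18 Cabp4 (range -0.45 to 0.22), Lrit1 (range -0.07 to 0.41) and Elfn1 (range -0.05 to 0.39) without rd10 P18 replicate 1.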

Other observations

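The genes of conventional synapses, which hold no ribbon, such as those of amacrine cells, gave 0 called of 11 at P15, P18 and P21 against WT P15, with median log2 fold changes of 0.22, -0.10 and 0.05. At P15, Stx1a, a plasma membrane fusion protein of conventional synapses, measured 0.94 (SE 0.19, edgeR adjusted p = 0.0837), Slc17a6, a vesicular glutamate transporter of ganglion cells, 0.38 (adjusted p = 0.246) and Cplx2, a complexin, 0.37 (adjusted p = 0.388). At P18 Stx1a measured 0.60 (adjusted p = 0.156), Slc6a9, a glycine transporter, -0.33 (adjusted p = 0.302) and Cplx1 -0.26 (adjusted p = 0.316). At P21 Cplx1 measured -0.33 (adjusted p = 0.336), and Gad2 and Slc32a1, genes of inhibitory transmission, 0.26 (adjusted p = 0.6) and 0.24 (adjusted p = 0.602).

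Other markers of the tissue were read as summed CPM. Those of amacrine and ganglion cells (12 genes) were 2285 to 2381 in WT P15, 2682 to 2707 in rd10 P15 and 2232 to 2237 in rd10 P21. Horizontal cell markers (5 genes) were 396 to 428 in WT P15, 479 to 546 in rd10 P15, 353 to 451 in rd10 P18 and 459 to 488 in rd10 P21. Muller glia markers (10 genes) were 3940 to 4602, 3730 to 4394, 3660 to 3716 and 5205 to 5613 in the same groups. Markers of the retinal pigment epithelium (10 genes) were 69.7 to 193 in WT P15, 259 to 291 in rd10 P15 and 43.4 to 57.1 in rd10 P18. Lens markers (10 genes) stayed between 0.443 and 8.08 in every group, with Mip at 0 counts in all libraries, and red blood cell markers (6 genes) between 56.8 and 188.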
